A study of Mus musculus with 12 samples.

Results

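Cold acclimation was compared with ambient housing in the inguinal white adipose tissue (iWAT) of bBMKO mice, with 3 libraries from mice kept at 10 °C for 2 weeks and 3 libraries from mice kept at 22 °C. These are 6 of the 12 iWAT libraries of the study, and the other 6 came from bBMCtr mice at the same temperatures. All mice were C57BL/6 and homozygous for a floxed Bmal1 allele (Bmal1 fl/fl), so the controls carried the loxP sites too. bBMKO mice also carried a Cre transgene driven by Prx1, which acts in progenitors and mature fat cells of subcutaneous beige fat but not in visceral white or interscapular brown fat, and bBMCtr littermates lacked it. Immune, endothelial and epithelial cells of the depot are not its stated targets. The sample records give no age. The study's methods put cold acclimation at 10 to 12 weeks of age, while its legends on iWAT RNA sequencing put the mice at 6 weeks. Each library was made from polyadenylated RNA, and the question was what cold does to transcripts of beige fat that lacks the core clock factor Bmal1.

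Beige fat cells lie scattered in subcutaneous white depots and take on features of brown fat in the cold. Noradrenaline from sympathetic nerves acts on beta-adrenergic receptors, cyclic AMP rises, stored triglyceride is broken down, and the freed fatty acids are burnt in mitochondria. Ucp1 in the inner mitochondrial membrane lets protons return without making ATP, so that the energy is given off as heat. Bmal1 pairs with Clock on E-box sequences and drives the daily rhythm of many metabolic genes. Transcripts of its gene, Arntl, were read at 13.5, 16.9 and 18.2 CPM in the ambient bBMKO libraries and at 18.9, 17.6 and 19.6 CPM in the cold ones, where CPM are read counts scaled to a common library size and values are given in the order of replicates 1, 2 and 3. The groups overlapped, and reads were counted over all exons of Arntl, also those that Cre leaves in place, so that they check no label.

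The 12 libraries held 17887795 to 21436282 counts. Normalization factors (TMM) of the 3 cold bBMKO libraries, 0.870 to 0.916, lay below those of all others, 0.974 to 1.13. The cold and ambient mice differed in sex as well as in temperature: Xist, the RNA of the inactive X chromosome, was at 1313 CPM or more in every ambient library and at most 2.99 CPM in every cold one, and the Y-linked Ddx3y ran the other way. The study's legends name male mice for a panel of mitochondrial genes and female mice for a panel of ambient and cold mice. Neither sex matches the reads of all libraries. Ambient bBMKO replicate 2 held low Y-linked counts too (Ddx3y at 4.53 CPM, against 0 in ambient bBMKO replicates 1 and 3). List counts of 3 or more that change by more than 1.5-fold without this library are given below with their values. Temperature and sex can therefore not be told apart in any comparison here, and genes of the sex chromosomes were left out of every count. Age may also have differed between ambient and cold mice, since the ages given above do not match. Its part cannot be told apart either. Summed markers of mammary epithelium, which a female fat pad holds, were at 2110, 2011 and 1795 CPM in ambient bBMKO and at 47.0, 70.3 and 49.9 CPM in cold bBMKO, with 19 of 20 tested markers lower in the cold. Fat cell markers summed to 16366, 11441 and 14785 CPM at ambient temperature and to 22461, 20942 and 23729 CPM in the cold, which is higher in every cold library, and 4 of the 6 rose. In bulk tissue, more cells of a type and more RNA per cell cannot be told apart. Skeletal muscle markers summed to 2010.5, 2154 and 98.8 CPM at ambient temperature and to 3861, 8560 and 2869 CPM in the cold. Lymphocyte and lymph node markers were at 36.1, 66.0 and 526 CPM in the ambient libraries and 94.7, 48.9 and 47.5 CPM in the cold ones, so that ambient replicate 3 stood above the others in lymphocyte genes and below them in muscle genes. Endothelial markers summed to 679, 632 and 737 CPM in the ambient libraries and 901, 865 and 837 CPM in the cold ones, without overlap, although none of the 6 passed. All 6 had positive log2 fold changes that stayed below the 1.5-fold minimum. Their adjusted p in the edgeR test ran from 0.00823 for Tie1 to 0.263 for Pecam1. Macrophage and Schwann cell sums overlapped between groups, and 1 of these 12 markers fell and none rose. The part of these cell types in the results below was not tested, except where a value is given.

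**Figure D1:**
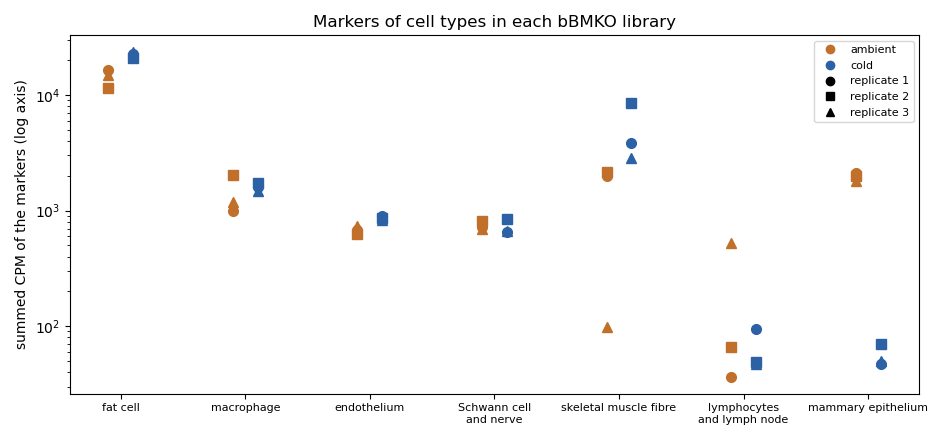
Summed CPM of marker genes (log axis) for 7 cell types in each bBMKO library; orange is ambient, blue is cold, and the marker shape gives the replicate. Mammary epithelium markers lie between 1795 and 2110 CPM in the ambient libraries and between 47.0 and 70.3 CPM in the cold ones, and the muscle markers of ambient replicate 3 lie at 98.8 CPM.

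Of 15413 genes tested, 14904 were autosomal. A gene was called in edgeR's quasi-likelihood test where it changed by more than 1.5-fold, with p below 0.05 before and below 0.25 after Benjamini-Hochberg adjustment, and "passed" means this here. In bBMKO iWAT, 962 autosomal genes (6.45%) rose in the cold and 1851 (12.4%) fell, 2813 (18.9%) in all. Scaled by library size alone, 573 rose and 2401 fell, and the median log2 fold change of all autosomal genes moved from -0.02 to -0.17, so that a small positive median of a gene group has no fixed sign. The genes that fell had the larger changes, with 432 down by more than 8-fold against 24 up. In the gene lists below, counts of 1 or 2 genes moved to between 0 and 3 with 1 library left out, except where other values are given. Each count of a list stands beside these shares of all autosomal genes, 6.45% higher and 12.4% lower. The p-values set each difference against the spread between mice within groups. That spread was estimated over all 12 libraries together, bBMCtr included, and not from the compared groups alone. The 3 cold libraries lay above all 3 ambient ones for 3183 genes (21.4%) and below them for 3381 (22.7%).

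Genes with the smallest p among those that rose were of mixed kinds. Serpine2 (protease nexin-1), a secreted inhibitor of thrombin and plasminogen activators, was read at 26.4, 35.6 and 26.0 CPM in the ambient libraries and at 149.9, 206 and 207 CPM in the cold ones (log2 fold change 2.68, standard error 0.21, adjusted p = 1.5e-05). Kcnj15, an inward rectifier potassium channel, was at 3.10, 3.77 and 4.98 CPM in ambient and 26.1, 29.7 and 26.5 CPM in cold bBMKO mice (log2 fold change 2.79, standard error 0.23, adjusted p = 2.03e-05). Col4a3 and Col4a4, which lie head to head and encode chains of a tissue-restricted type IV collagen of basement membranes, rose together, Col4a3 from 9.10, 10.2 and 9.64 CPM to 28.0, 39.7 and 44.3 CPM (log2 fold change 1.95, standard error 0.17, adjusted p = 3.17e-05) and Col4a4 with a log2 fold change of 1.75. Groups that do not overlap were part of how these genes were chosen. Adra1b, an alpha-1 adrenergic receptor, was low at 1.07, 1.02 and 0.831 CPM and went to 5.31, 7.29 and 6.94 CPM (log2 fold change 2.74, standard error 0.27, adjusted p = 6.79e-05), while Adora1, the adenosine receptor that restrains lipolysis, went from 96.7, 89.2 and 117 to 247, 220.4 and 219 CPM (log2 fold change 1.18, standard error 0.12, adjusted p = 7.23e-05). Slc6a12, a betaine and GABA transporter, rose by 2.0 on the log2 scale, Fbxo21, a subunit of a ubiquitin ligase, by 1.35, Ccdc3, a protein secreted by fat cells, by 1.18, Bcar3, an adaptor of Cas signalling, by 1.26, and Endog, a mitochondrial nuclease, by 0.87. The change of C7, a component of the terminal complement complex, was the largest of these 15 genes: C7 was at 1.78, 12.1 and 5.03 CPM in the ambient libraries and at 203, 289 and 282 CPM in the cold ones (log2 fold change 5.36, standard error 0.54, adjusted p = 7.92e-05).

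Thermogenic effectors rose as a group, with 14 of 17 members tested higher (6.45% of all autosomal genes rose) and 1 lower (12.4% of all), and a median log2 fold change of 2.91 beside -0.02 for all autosomal genes. The number higher became 10 without ambient replicate 2 and 10 without cold replicate 1. Ucp1 was read at 27.0, 13.0 and 0.738 CPM in the ambient libraries and at 1553, 54.9 and 400.0 CPM in the cold ones (log2 fold change 5.63, standard error 1.72, adjusted p = 0.0371). Each cold library was above each ambient one, but the cold mice themselves spanned a wide range, and replicate 2 lay nearer to ambient replicate 1 than to cold replicate 1. Cpt1b, the muscle and brown fat form of the enzyme that admits fatty acids to mitochondria, was at 16.5, 10.8 and 5.26 CPM and then at 244, 48.3 and 90.5 CPM (log2 fold change 3.56, standard error 0.74, adjusted p = 0.00655). Otop1, a proton channel of thermogenic fat, was at 11.7, 5.29 and 4.75 CPM in ambient and 113, 26.2 and 52.8 CPM in cold bBMKO mice (log2 fold change 3.14, standard error 0.56, adjusted p = 0.00300). Cox7a1, the heart and brown fat isoform of a cytochrome oxidase subunit, and Plin5, a perilipin that ties lipid droplets to mitochondria, rose by 3.22 and 2.13, with no overlap between groups. Acot11, a thioesterase of brown fat, went from 14.2, 11.9 and 10.1 to 279, 14.3 and 85.1 CPM (log2 fold change 3.39, adjusted p = 0.0208). For Cidea, a droplet protein of brown fat, and Cox8b, another tissue-restricted cytochrome oxidase subunit, the rise also passed (3.20 and 1.43) although cold replicate 2 lay within the ambient range of both. Elovl3, an elongase of very long chain fatty acids and a marker of cold-exposed brown fat, had 11.6, 1.58 and 4.8 CPM at ambient temperature and 105, 1.89 and 28.1 CPM in the cold and did not pass (log2 fold change 2.91, adjusted p = 0.17).

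Dio2, the deiodinase that makes active thyroid hormone within brown fat and that cyclic AMP induces there, was the exception. It was read at 33.7, 16.7 and 17.0 CPM in the ambient libraries and at 12.1, 7.23 and 13.2 CPM in the cold ones, so that all cold libraries lay below all ambient ones (log2 fold change -1.05, standard error 0.45, adjusted p = 0.119). Its call was lost without ambient replicate 1 (-0.63), without cold replicate 1 (-1.14), without cold replicate 2 (-0.83) and without cold replicate 3 (-1.21). The Dio2 promoter is shown because it holds a full cyclic AMP response element (TGACGTCA, in capitals), which 2.03% of the RefSeq promoter windows of 27025 genes, and 3.41% of those of the 11239 tested autosomal genes that were matched, hold on either strand. Here and below, a window runs from 250 bases before to 50 bases after the start site on GRCm38.p6 (mm10), stretches of 30 bases are printed 5′ to 3′ on the strand of the gene, and a match is a description only.
Dio2, chr12:90739115-90739144, minus strand: ctctttctcaaTGACGTCAagatctttagc

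**Figure D2:**
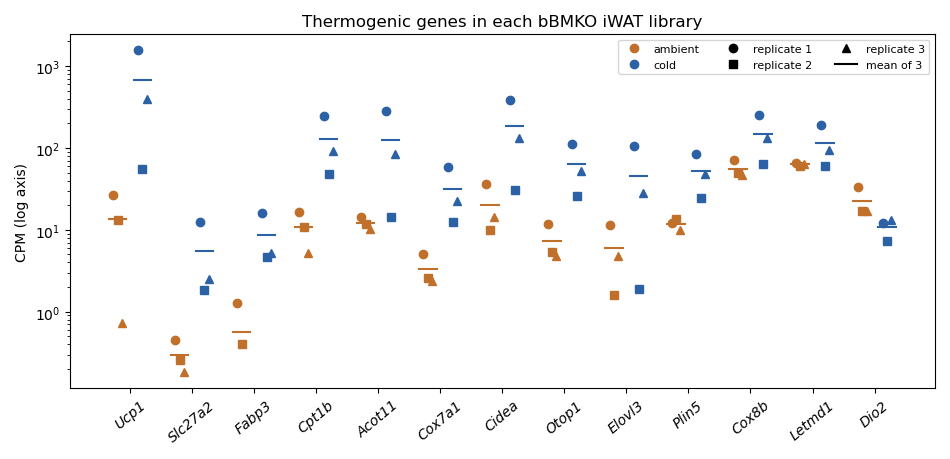
CPM (log axis) of 13 thermogenic genes in each bBMKO library, ambient in orange and cold in blue, with a bar at the mean of 3 and the replicate given by the marker shape; the ambient replicate 3 of Fabp3 is at 0 and is not drawn. In 12 genes the cold mean lies above the ambient mean and cold replicate 1 is the highest library, and in Dio2 the order of the groups is turned.

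Regulators that set beige and brown identity moved less than their effectors. Of 24 tested, 8 rose and 2 fell, with a median of 0.32. Prdm16, the zinc finger protein that commits cells to the brown and beige fate, was read at 21.9, 20.4 and 21.5 CPM in the ambient libraries and at 35.9, 43.7 and 47.8 CPM in the cold ones (log2 fold change 1.0, standard error 0.10, adjusted p = 8.75e-05). The cold libraries spread less than they did for Ucp1, and here cold replicate 1 was the lowest of them. Ppargc1a, the coactivator that induces mitochondrial genes, went from 13.4, 8.91 and 12.2 to 26.8, 24.0 and 23.7 CPM (log2 fold change 1.11, standard error 0.18, adjusted p = 0.00161), and Ebf2, a marker and selector of brown and beige precursors, from 38.2, 39.6 and 35.9 to 67.6, 62.2 and 62.8 CPM (log2 fold change 0.76, standard error 0.11, adjusted p = 0.000872). Ppara, the fatty acid receptor that drives oxidation genes, was at 25.4, 18.4 and 27.5 CPM and then at 135, 32.0 and 68.7 CPM (log2 fold change 1.72, standard error 0.42, adjusted p = 0.0152), and Tbx1, used as a beige marker, was at 1.42, 1.58 and 2.68 CPM and then at 7.65, 6.14 and 5.38 CPM (log2 fold change 1.75, standard error 0.50, adjusted p = 0.0279). Esrra, the nuclear receptor that works with Ppargc1a on respiratory genes, rose by 0.63, a call that was lost without cold replicate 1 (0.46). Esrrb, a relative of Esrra, fell from 8.90, 11.0 and 5.17 to 0.409, 0.746 and 0.222 CPM (log2 fold change -4.17, standard error 0.48, adjusted p = 0.000196), and Ppargc1b did not pass (0.18).

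Mitochondrial pathways rose broadly, by less than 2-fold for most members. In fatty acid oxidation 21 of 32 genes rose and 1 fell (median 0.72), and in the TCA cycle with pyruvate entry 18 of 29 rose and 0 fell (median 0.67). Acaa2, the thiolase that ends each round of oxidation, was at 126, 106 and 102 CPM in ambient and 462, 198 and 285.6 CPM in cold bBMKO mice (log2 fold change 1.5, standard error 0.27, adjusted p = 0.00320). Hadhb and Acadvl, which act on long chains, rose by 1.10 (not called without cold replicate 1 (0.54)) and 1.16, Cpt2, which rebuilds acyl-CoA inside the matrix, by 0.97, and Etfa, which passes the electrons on, by 0.88. Cpt1a, the liver form of the entry enzyme, did not pass and had a negative value (-0.31), unlike Cpt1b above, and Bdh1, which interconverts ketone bodies, fell from 4.32, 3.46 and 5.26 to 0.467, 1.49 and 0.610 CPM (log2 fold change -2.34, standard error 0.39, adjusted p = 0.00198). In the TCA cycle, Sucla2, a subunit of succinyl-CoA ligase, was at 204, 146 and 166 CPM in ambient and 629, 265 and 373 CPM in cold bBMKO mice (log2 fold change 1.29, standard error 0.29, adjusted p = 0.0107), and Idh3a, of the NAD-linked isocitrate dehydrogenase, rose by 1.07. All cold libraries were above all ambient ones in both. Pdk4, the kinase that shuts pyruvate dehydrogenase when fat is burnt, was at 122, 116 and 112 CPM and then at 658, 152 and 274 CPM (log2 fold change 1.63, standard error 0.50, adjusted p = 0.0368), and its call was lost without cold replicate 1 (0.87). In fatty acid oxidation the number of genes that rose became 10 without cold replicate 1 and 17 without ambient replicate 2. In the TCA cycle it became 6 without cold replicate 1 and 12 without ambient replicate 2. Muscle markers were higher in the cold libraries, and with their mean level as a covariate 17 and 14 genes of these lists rose.

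Subunits of the respiratory chain moved the same way by smaller amounts. Of 34 complex I subunits 10 rose (median 0.53), of 14 in complexes II and III 7 rose (0.62), of 15 in complex IV 7 rose (0.60), and none of these 63 fell. Of 17 ATP synthase genes 2 rose and 1 fell (0.38). Uqcrc1, a core protein of complex III, was read at 225, 199 and 196 CPM in ambient and 517, 291.1 and 360.4 CPM in cold bBMKO mice (log2 fold change 0.91, standard error 0.19, adjusted p = 0.00636), Cyc1, its cytochrome, at 185, 145 and 157 and 401, 220.2 and 294 CPM (log2 fold change 0.91, standard error 0.19, adjusted p = 0.00737), and Ndufv1, the subunit of complex I that binds NADH, at 165, 139 and 153 and 337, 208 and 258 CPM (log2 fold change 0.81, standard error 0.17, adjusted p = 0.00755). The ATP synthase gene that fell was Atpif1, the inhibitor of the enzyme, which went from 43.4, 51.7 and 40.2 to 23.0, 23.2 and 23.5 CPM (log2 fold change -0.96, standard error 0.13, adjusted p = 0.000709), with every cold library below every ambient one. These counts moved with single libraries: with 1 library left out, the number that rose became 1 without cold replicate 1, 6 without ambient replicate 2, 20 without ambient replicate 1 and 24 without cold replicate 2 in complex I, 2 without cold replicate 1, 11 without ambient replicate 1 and 12 without cold replicate 2 in complexes II and III and 2 without cold replicate 1 and 11 without cold replicate 2 in complex IV. In ATP synthase it became 0 without cold replicate 1, 1 without ambient replicate 2, 1 without ambient replicate 3 and 6 without cold replicate 2. Scaled by library size alone, 3 genes rose in complex I, 3 in complexes II and III, 2 in complex IV, 9 in the TCA cycle and 1 in mitochondrial shape, import and transport. With the mean level of muscle markers as a covariate, 6 rose in complex I, 6 in complexes II and III and 5 in complex IV. In ATP synthase 1 rose with this covariate, and in mitochondrial shape, import and transport 2 did. Of 76 mitochondrial ribosomal proteins 1 rose, beside 6.45% of all autosomal genes, with a median of 0.28. The fold minimum sets this count: 72 of the 76 had a positive value, and 25 were higher at an adjusted p under 0.05 with no fold minimum. Among genes of mitochondrial shape, import and transport 7 of 32 rose and 1 fell (median 0.29; 3 without cold replicate 1 and 4 without ambient replicate 2), with Letm1, an inner membrane ion exchanger, up by 0.84 and Slc25a13, an aspartate and glutamate carrier, at -1.28.

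The promoter of Sdha, the flavoprotein of complex II, which is also a TCA cycle enzyme, is shown because it holds repeated sites of the form bound by NRF1, a factor known for respiratory chain genes (GCGC, any base, T and again GCGC, read on either strand, in capitals), a form found in 5.19% of all promoter windows and in 10.3% of those of tested genes. Sdha was at 733, 538 and 659.8 CPM in the ambient libraries and at 1353, 789 and 975 CPM in the cold ones (log2 fold change 0.69, standard error 0.20, adjusted p = 0.0278), and its call was lost without ambient replicate 2 (0.55) and without cold replicate 1 (0.45). Atpif1, which fell, holds a site of the same form.
Sdha, chr13:74350319-74350348, minus strand: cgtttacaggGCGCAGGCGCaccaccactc
Sdha, chr13:74350276-74350305, minus strand: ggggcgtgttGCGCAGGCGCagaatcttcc
Atpif1, chr4:132535536-132535565, minus strand: tgaccgttctGCGCAAGCGCagcctcacgt

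The cold mice ranked alike across these lists. Cold replicate 1 was above replicate 3, and replicate 3 above replicate 2, in 16 of 17 thermogenic effectors (94.1%), 29 of 32 fatty acid oxidation genes (90.6%), 32 of 34 complex I subunits (94.1%) and 14 of 14 subunits of complexes II and III, while 3319 of 14904 autosomal genes (22.3%) had this order. The median log2 ratio to the ambient mean was 3.87 in replicate 1, 0.28 in replicate 2 and 1.98 in replicate 3 for thermogenic effectors, and 1.06, 0.28 and 0.68 for fatty acid oxidation. Replicate 2 also had the highest muscle markers of the cold mice. It was the highest of the 3 for 28 of 32 interferon-stimulated genes (87.5%), 27 of 32 Srf and MRTF targets (84.4%) and 26 of 32 proteoglycans and matricellular genes (81.2%), against 5753 of all autosomal genes (38.6%). These orders are given as a description, since genes of a list share their libraries.

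**Figure D3:**
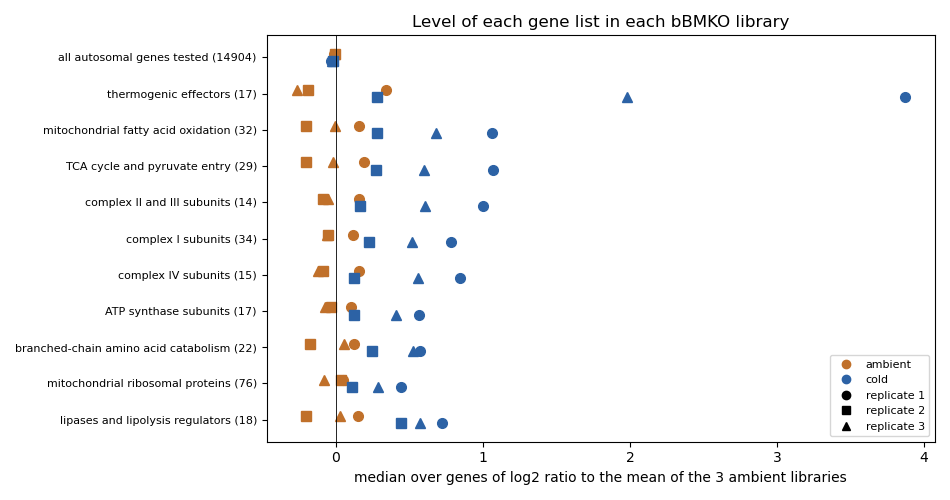
Median over the genes of a list of the log2 ratio to the mean of the 3 ambient libraries (an offset of 0.5 CPM was added), for each bBMKO library; orange is ambient, blue is cold, and the number of genes is in parentheses. Thermogenic effectors run from 0.28 in cold replicate 2 to 3.87 in cold replicate 1, and all autosomal genes stay near 0 in every library.

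Fat cell genes for holding and releasing triglyceride rose. Among lipases and their regulators 7 of 18 rose and 0 fell (median 0.51), among lipid droplet proteins 6 of 14 rose and 0 fell (0.68), and in fatty acid uptake and binding 7 of 19 rose and 1 fell (0.33; 3 without ambient replicate 2). Plin4, a perilipin of nascent droplets, was at 2396, 3059 and 2275 CPM in the ambient libraries and at 3858, 5717 and 4967 CPM in the cold ones (log2 fold change 0.91, standard error 0.18, adjusted p = 0.00536). Hilpda, an inhibitor of the lipase Atgl, rose from 9.26, 7.84 and 8.35 to 14.9, 20.7 and 14.4 CPM (log2 fold change 0.98, standard error 0.17, adjusted p = 0.00262), and so did Angptl4, a secreted inhibitor of lipoprotein lipase, from 137, 118 and 178 to 339.7, 258 and 298 CPM (log2 fold change 1.05, standard error 0.19, adjusted p = 0.00299). Both lipase inhibitors thus lay higher in every cold library, in the same mice in which Mgll, the monoglyceride lipase, rose by 0.74 and Vldlr, a lipoprotein receptor, by 0.91. Cd36, the fatty acid translocase, rose by 0.72 and was not called without ambient replicate 2 (0.58). Among peroxisomal lipid enzymes 6 of 28 rose and 1 fell (median 0.36). The one that fell was Agps, which makes ether lipids, at 358, 114 and 298 CPM and then at 60.3, 58.3 and 65.1 CPM (log2 fold change -2.07, standard error 0.43, adjusted p = 0.00658), while Abcd2, a transporter of very long chain acyl-CoA, rose by 0.86. With 1 library left out, the number of peroxisomal genes that rose became 3 without ambient replicate 2 and 3 without cold replicate 1.

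Lipid synthesis was divided. For fatty acids and triglyceride 5 of 31 rose and 4 fell (median 0.16; the number that rose became 1 without ambient replicate 2, 1 without cold replicate 1, 2 without ambient replicate 3 and 2 without cold replicate 3). Fasn, the fatty acid synthase, varied more between mice than between temperatures, with 17192, 8177 and 14334 CPM at ambient temperature and 21551, 8208 and 10691 CPM in the cold (log2 fold change 0.03, adjusted p = 0.973). Lpin2, a phosphatidate phosphatase, fell from 82.6, 88.3 and 110.0 to 27.7, 27.7 and 24.3 CPM (log2 fold change -1.82, standard error 0.13, adjusted p = 8.22e-06), and Gpam, the mitochondrial enzyme that adds the acyl chain that starts glycerolipid synthesis, from 444, 464 and 300.5 to 272, 198 and 213 CPM (log2 fold change -0.82, standard error 0.18, adjusted p = 0.00969). Mogat1, a monoacylglycerol acyltransferase, rose by 0.85, and Fads1, a desaturase of polyunsaturated fatty acids, fell by 0.69 on the log2 scale. In sterol synthesis and uptake 1 of 24 rose and 5 fell (median -0.28; with 1 library left out, the number that fell became 2 without ambient replicate 1, 3 without ambient replicate 2 and 3 without cold replicate 3). Hmgcs1, which makes HMG-CoA, rose from 579.9, 497 and 439 to 960.1, 868 and 913 CPM (log2 fold change 0.85, standard error 0.10, adjusted p = 0.000275), while Sqle, squalene epoxidase, fell from 57.1, 49.6 and 29.1 to 26.6, 25.1 and 21.7 CPM (log2 fold change -0.89, standard error 0.27, adjusted p = 0.0372). In both the groups did not overlap. The Hmgcs1 promoter is shown because it holds a sterol regulatory element (TCACNCCAC on either strand, in capitals), found in 1.44% of all promoter windows (1.4% of those of tested genes) and known in this gene as a target of SREBP factors.
Hmgcs1, chr13:119690204-119690233, plus strand: cgtcaccgtcTCACCCCACttcccaggtcc

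In glucose uptake, glycolysis and glycogen 9 of 30 genes rose and 2 fell (median 0.55). Ldhb, the heart form of lactate dehydrogenase, went from 25.4, 17.6 and 23.6 to 67.9, 35.4 and 46.2 CPM (log2 fold change 1.16, standard error 0.25, adjusted p = 0.00815). Slc2a1 (Glut1), the basal glucose carrier, fell from 32.8, 55.9 and 42.5 to 18.6, 24.4 and 21.0 CPM (log2 fold change -1.03, standard error 0.19, adjusted p = 0.00339), and Hk1, a hexokinase, from 87.1, 101 and 92.5 to 59.8, 62.9 and 50.7 CPM (log2 fold change -0.69, standard error 0.10, adjusted p = 0.000872), with no overlap in either. Slc2a4 (Glut4), the insulin-responsive carrier, did not pass (0.41). Muscle markers were higher in the cold libraries, and with their mean level as a covariate 5 genes of this list rose; with 1 library left out the number became 4 without ambient replicate 3 and 5 without cold replicate 1. In branched-chain amino acid breakdown 4 of 22 rose and 0 fell (median 0.47), led by Mccc2, a carboxylase of leucine breakdown, at 124, 100.2 and 119.6 CPM and then at 199, 177 and 198 CPM (log2 fold change 0.74, standard error 0.13, adjusted p = 0.00333). With 1 library left out the number became 2 without ambient replicate 2, 2 without cold replicate 1 and 9 without cold replicate 2. Of 20 genes of NAD metabolism 2 rose and 1 fell (median 0.21), the latter Nnt, a mitochondrial transhydrogenase (-0.67).

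Upstream of heat production, adrenergic receptors and cyclic AMP signalling showed 3 higher and 3 lower of 33 (median 0.23). These are 9.09% each, beside 6.45% and 12.4% of all autosomal genes. Adrb3, the fat cell receptor for noradrenaline, overlapped between groups at 274, 218 and 375 and 351, 193 and 287 CPM (log2 fold change -0.06, adjusted p = 0.881). Pde4d, a phosphodiesterase that removes cyclic AMP, rose from 38.7, 30.8 and 46.4 to 97.9, 58.7 and 70.2 CPM (log2 fold change 0.97, standard error 0.20, adjusted p = 0.00638), and Prkar2b, the main regulatory subunit of protein kinase A in fat, from 863, 525 and 814 to 1549, 1085 and 1380.2 CPM (log2 fold change 0.87, standard error 0.19, adjusted p = 0.0101). Rgs2, which quenches G protein signals, fell by 1.29. With 1 library left out, the number that rose became 6 without cold replicate 2. Among receptors that restrain lipolysis 3 of 10 rose and 1 fell (median 0.28). Ffar2, the short-chain fatty acid receptor, went from 71.2, 61.9 and 71.2 to 137, 143 and 178 CPM (log2 fold change 1.17, standard error 0.17, adjusted p = 0.000815) beside Adora1 above. Genes of creatine and calcium cycling, which make heat without Ucp1, had 1 higher and 2 lower of 11 (median 0.50; 3 without ambient replicate 2 and 3 without cold replicate 1 for those that rose). Alpl, the phosphatase of the creatine cycle, fell from 27.6, 24.6 and 24.7 to 16.4, 12.6 and 14.3 CPM (log2 fold change -0.83, standard error 0.16, adjusted p = 0.00446), Ckb, the cytosolic creatine kinase, did not pass (0.50) but was called higher without ambient replicate 2 and without cold replicate 1, and Sln, a muscle peptide that uncouples the calcium pump, was at 0, 0.153 and 0 CPM in ambient and 0.642, 2.01 and 1.33 CPM in cold bBMKO mice (log2 fold change 4.58, adjusted p = 0.0221), in the libraries with more muscle marker counts.

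Among secreted factors of fat cells 6 of 22 rose and 1 fell (median 0.22). Nnat, a small membrane protein of fat and nerve cells, was at 217, 289 and 360.3 CPM in the ambient libraries and at 579, 1394 and 1042 CPM in the cold ones (log2 fold change 1.80, standard error 0.32, adjusted p = 0.00278), and Npr3, the clearance receptor for natriuretic peptides, at 188, 129 and 140.5 and 249, 831 and 385 CPM (log2 fold change 1.68, standard error 0.44, adjusted p = 0.020). Lep (leptin) was at 449, 369.8 and 415 CPM and then at 431, 1197 and 647 CPM (log2 fold change 0.88, adjusted p = 0.103), and its call was lost without ambient replicate 1 (0.95), without ambient replicate 2 (0.78), without ambient replicate 3 (0.88) and without cold replicate 2 (0.39). In Lep, Npr3 and Nnat cold replicate 2 was the highest library, which had the least Ucp1 of the 3 cold ones. Adipoq (adiponectin) did not pass (0.15). Lcn2, which fat and epithelium make, fell from 66.9, 46.5 and 65.8 to 2.04, 2.99 and 1.55 CPM (log2 fold change -4.76, standard error 0.35, adjusted p = 1.04e-05). In insulin and IGF signalling 3 of 27 rose and 3 fell (median 0.03; 1 without ambient replicate 2 and 1 without cold replicate 1 for those that rose), with Grb14, an inhibitor of the insulin receptor, up from 13.0, 8.65 and 10.8 to 41.1, 70.4 and 58.9 CPM (log2 fold change 2.39, standard error 0.31, adjusted p = 0.000384). Of 22 fat cell transcription factors 2 rose and 3 fell (median 0.32), which is 9.09% and 13.6% beside 6.45% and 12.4% of all autosomal genes. Rxrg, a partner of nuclear receptors, rose by 0.94, Pparg, the master regulator of fat cells, did not pass (0.46), and Gata3, which the mammary gland also uses, fell from 185, 44.5 and 155 to 1.52, 1.89 and 1.39 CPM (log2 fold change -6.32, adjusted p = 0.000124). Of 15 glucocorticoid and metallothionein genes 7 rose and 1 fell (median 0.46; 4 without ambient replicate 1 for those that rose). Hsd11b1, which regenerates active glucocorticoid within fat, went from 85.3, 47.7 and 106 to 240.5, 161 and 214 CPM (log2 fold change 1.36, standard error 0.27, adjusted p = 0.00538).

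Among 23 clock genes, 1 rose (4.35%, beside 6.45% of all autosomal genes) and 2 fell (8.70%, beside 12.4%), with a median of 0.00. Clock, the partner of Bmal1, was at 172, 162 and 164 and 185, 173 and 198 CPM and did not pass (0.16), and Nr1d1, a repressor that Bmal1 induces, overlapped at 72.8, 58.6 and 73.0 and 80.9, 73.8 and 59.3 CPM (0.06). Bhlhe41 (Dec2), a repressor that competes for E-boxes, fell from 215, 124 and 141 to 40.5, 44.9 and 27.2 CPM (log2 fold change -2.09, standard error 0.32, adjusted p = 0.00112), and Noct (nocturnin), a rhythmic phosphatase of NADPH, rose from 77.0, 48.5 and 68.4 to 142, 93.1 and 131 CPM (log2 fold change 0.92, standard error 0.19, adjusted p = 0.00611). The groups did not overlap in either. Bhlhe40 (Dec1) fell too (-1.17), a call lost without ambient replicate 1 (-0.77), without ambient replicate 2 (-1.23), without cold replicate 2 (-1.14) and without cold replicate 3 (-1.04). The Bhlhe41 promoter is shown because it holds an E-box (CACGTG, in capitals), found in 8.09% of all promoter windows (11.1% of those of tested genes).
Bhlhe41, chr6:145865556-145865585, minus strand: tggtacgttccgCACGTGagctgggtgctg

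Stress genes did not move as a group. Of 18 cold-inducible and heat shock genes 4 rose and 3 fell (median -0.02). Hspa1b, the inducible Hsp70, went from 30.8, 25.3 and 24.4 to 4.32, 4.08 and 3.05 CPM (log2 fold change -2.81, standard error 0.25, adjusted p = 3.68e-05), and its near-identical neighbour Hspa1a, with which it may share reads, fell by 1.98. Hspb6, a small heat shock protein abundant in muscle, rose by 1.65, in the libraries with the higher muscle markers. Cirbp, the cold-inducible RNA-binding protein, was at 58.1, 55.3 and 64.9 CPM and then at 81.4, 75.8 and 81.2 CPM, with no overlap, but did not pass the fold threshold (log2 fold change 0.42, adjusted p = 0.0501). With 1 library left out, the number that rose became 2 without ambient replicate 3 and 2 without cold replicate 2. In the unfolded protein and integrated stress response 1 of 28 rose and 1 fell (median -0.15; 2 without ambient replicate 1 and 4 without ambient replicate 3 for those that fell): Sesn2, a stress-induced inhibitor of mTORC1, rose by 0.81, and Atf3, a stress-induced repressor, fell by 0.98. Of 22 Cdk inhibitors and p53 targets 2 rose and 3 fell (median -0.24). Cdkn1a (p21) went from 143, 201 and 146 to 244, 264 and 289 CPM (log2 fold change 0.70, standard error 0.17, adjusted p = 0.0128), and Plk2, a p53-induced kinase, from 219, 184 and 218 to 32.2, 42.8 and 34.8 CPM (log2 fold change -2.50, standard error 0.16, adjusted p = 5.88e-06), with all cold libraries on one side in each.

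Immediate-early genes, which answer acute stimuli and handling, fell: 0 of 23 rose and 11 fell (median -0.60). Fos was at 25.9, 38.7 and 30.6 CPM in the ambient libraries and at 7.77, 11.4 and 7.66 CPM in the cold ones (log2 fold change -1.83, standard error 0.46, adjusted p = 0.0175), and Egr2 at 14.1, 59.4 and 10.2 and 4.03, 4.48 and 3.44 CPM (log2 fold change -2.81, standard error 0.65, adjusted p = 0.0121), with ambient replicate 2 the highest library in both. Of 37 cell division genes 0 rose and 14 fell (median -0.91), although the number that fell became 3 without ambient replicate 2, 3 without cold replicate 3, 7 without cold replicate 1 and 9 without ambient replicate 3. Mcm6, a helicase subunit, fell from 31.4, 38.7 and 39.5 to 16.5, 19.8 and 17.6 CPM (log2 fold change -1.02, standard error 0.22, adjusted p = 0.00780), and Cdt1, which licenses replication origins, from 7.17, 10.4 and 6.37 to 3.62, 4.48 and 2.94 CPM (log2 fold change -1.12, standard error 0.26, adjusted p = 0.0113). Of 72 cytosolic ribosomal protein genes 0 rose and 9 fell (median -0.42), and 33 fell when library size alone was used. The share that fell, 12.5%, was near the 12.4% of all autosomal genes. The fold minimum sets this count: only 3 of the 72 had a positive value. At an adjusted p under 0.05 in the edgeR test with no fold minimum, 27 of the 72 were lower, beside 1964 of all 14904 autosomal genes. Rpl15 went from 24.0, 29.1 and 23.8 to 14.1, 13.7 and 15.9 CPM (log2 fold change -0.81, standard error 0.13, adjusted p = 0.00130). With 1 library left out, the number that fell became 5 without ambient replicate 2. Their many pseudogenes can take reads from them, so these counts are uncertain. With lymphocyte markers as a covariate 12 immediate-early genes, 14 cell division genes and 8 cytosolic ribosomal protein genes fell. Mammary markers were higher in all ambient libraries, and their part in these lists was not tested.

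Immune genes split by class. No interferon-stimulated gene of 32 rose and 9 fell (median -0.77). Isg15, a ubiquitin-like antiviral protein, was at 7.27, 41.7 and 6.83 CPM in the ambient mice, with replicate 2 far above the others, and at 4.44, 6.14 and 4.55 CPM in the cold ones (log2 fold change -1.88, adjusted p = 0.0967), and its call was lost without ambient replicate 2 (-0.51), without cold replicate 1 (-1.80), without cold replicate 2 (-2.05) and without cold replicate 3 (-1.81). The number of interferon-stimulated genes that fell became 1 without ambient replicate 2, 2 without cold replicate 3, 3 without cold replicate 1, 15 without ambient replicate 3 and 18 without ambient replicate 1. By contrast 8 of 23 MHC class II and complement genes rose and 1 fell (median 0.16; 4 without ambient replicate 1, 4 without cold replicate 2 and 5 without ambient replicate 3 for those that rose), and all 8 that rose belonged to complement. Beside C7, C4b, of the classical pathway, went from 398, 799 and 507 to 1012, 1357 and 1482 CPM (log2 fold change 1.18, standard error 0.25, adjusted p = 0.00711; reads shared with the near-identical C4a cannot be told apart), and Serping1, the C1 inhibitor, from 299.8, 431 and 339 to 579, 788 and 545 CPM (log2 fold change 0.84, standard error 0.17, adjusted p = 0.00670). Cfi, the protease that cuts C4b and C3b, was low at 0.0509, 0.102 and 0.0923 CPM and then at 0.117, 0.746 and 0.666 CPM (log2 fold change 2.55, adjusted p = 0.0459). The class II genes H2-Aa and Cd74 overlapped between groups (0.21 and 0.19). Of 31 macrophage and myeloid genes 3 rose and 3 fell (median -0.13), 9.68% each, beside 6.45% and 12.4% of all autosomal genes. The number that rose became 8 without ambient replicate 2, and the number that fell 7 without ambient replicate 3. Gpnmb, a marker of lipid-laden macrophages, went from 40.2, 29.2 and 41.9 to 150.0, 75.6 and 81.9 CPM (log2 fold change 1.46, standard error 0.32, adjusted p = 0.00883), Arg1, arginase of alternatively activated macrophages, from 4.63, 5.50 and 7.34 to 0.467, 1.44 and 0.111 CPM (log2 fold change -3.11, standard error 0.69, adjusted p = 0.00975), and the pan-macrophage marker Adgre1 overlapped (0.20).

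Of all autosomal genes, 6.45% rose and 12.4% fell. Collagens (27.3%) and proteoglycans with matricellular proteins (31.25%) fell more often than this, and collagen-processing enzymes (14.3%) did so about as often. Of 22 collagens outside type IV 1 rose and 6 fell (median -0.40). Col16a1, which joins fibrils to their surroundings, fell from 61.8, 90.4 and 58.7 to 18.8, 20.6 and 18.4 CPM (log2 fold change -1.87, standard error 0.27, adjusted p = 0.000933), and Col14a1, a fibril-associated collagen, from 220.0, 203 and 159 to 96.4, 84.7 and 62.8 CPM (log2 fold change -1.25, standard error 0.24, adjusted p = 0.00430), whereas the abundant chains Col1a1 (-0.40) and Col3a1 (-0.45) did not pass. Of 32 proteoglycans and matricellular proteins 1 rose and 10 fell (median -0.31). Postn (periostin), a matricellular protein of remodelling tissue, fell from 1477, 899 and 1182 to 236, 177 and 201 CPM (log2 fold change -2.53, standard error 0.38, adjusted p = 0.00100), Thbs1 (thrombospondin-1), an activator of TGF-beta, from 67.4, 119.7 and 68.2 to 15.9, 20.8 and 16.8 CPM (log2 fold change -2.25, standard error 0.22, adjusted p = 5.84e-05), and Lum (lumican), which spaces collagen fibrils, from 313, 322.1 and 269 to 101, 69.0 and 79.9 CPM (log2 fold change -1.85, standard error 0.19, adjusted p = 0.000103). Prelp, another leucine-rich proteoglycan, ran against them from 373, 299 and 404 to 774, 1028 and 878 CPM (log2 fold change 1.32, standard error 0.15, adjusted p = 0.000182). In all 4 the groups did not overlap. Among lysyl oxidases and collagen-processing enzymes 1 of 21 rose and 3 fell (median -0.14; 6 without ambient replicate 1 and 7 without ambient replicate 3 for those that fell): Lox, which crosslinks collagen, rose from 149.9, 166 and 155 to 259.8, 299.9 and 301 CPM (log2 fold change 0.87, standard error 0.14, adjusted p = 0.00201), and Plod2, which prepares those crosslinks, went from 26.3, 117 and 19.4 to 8.35, 7.64 and 7.71 CPM (log2 fold change -2.78, standard error 0.67, adjusted p = 0.0138), with ambient replicate 2 far above the rest.

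At the cell surface, 4 of 20 basement membrane genes rose and 6 fell (median 0.23). Those that fell included Lama5 and Lama3 (-1.98 and -2.21), the latter a chain of an epithelial laminin, while Col4a3 and Col4a4 rose as given above and the vascular Col4a1 did not pass (0.21). Of 34 integrin and focal adhesion genes 3 rose and 10 fell (median -0.08). Itga7, a laminin receptor of muscle and vessel wall, went from 181, 176 and 184 to 356, 438 and 452 CPM (log2 fold change 1.20, standard error 0.13, adjusted p = 0.000147), and Itga8, a receptor of mesenchymal and smooth muscle cells, from 12.4, 8.96 and 11.3 to 2.39, 1.95 and 1.78 CPM (log2 fold change -2.41, standard error 0.34, adjusted p = 0.000667). Fermt1 (kindlin-1), the kindlin of epithelia, was at 9.97, 10.2 and 9.55 CPM at ambient temperature and at 0 in all cold libraries, at least 56.6-fold lower at a floor of 3 counts per library. Of 28 matrix proteases and inhibitors 5 rose and 8 fell (median -0.31; 3 without ambient replicate 2 for those that rose), with Mmp15, a membrane-bound protease, down from 119.9, 105 and 102 to 27.7, 26.5 and 23.6 CPM (log2 fold change -2.07, standard error 0.15, adjusted p = 9.35e-06) and Timp4, an inhibitor abundant in fat, up from 36.5, 36.4 and 58.3 to 86.0, 222 and 131 CPM (log2 fold change 1.74, standard error 0.37, adjusted p = 0.00718). Mammary epithelium markers fell along with the laminin and kindlin genes, and their part was not tested.

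**Figure D4:**
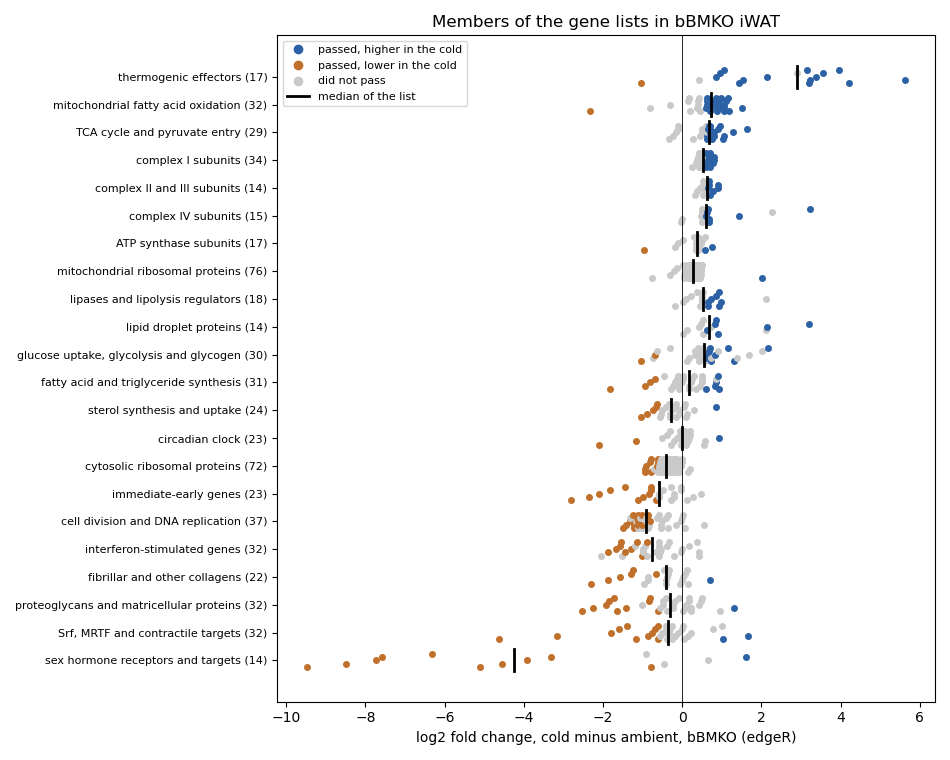
Log2 fold change (cold minus ambient, bBMKO, edgeR) of each autosomal member tested in 22 gene lists, with the number tested in parentheses; blue passed higher, orange passed lower, grey did not pass, and the black bar is the median. Medians run from 2.91 for thermogenic effectors to -4.23 for sex hormone receptors and targets.

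Srf with its cofactors of the MRTF family turns on actin and contractile genes. Their own transcripts did not pass, with Srf at -0.25, Mkl1 (MRTF-A) at -0.41 and Mkl2 (MRTF-B) at -0.02. Of 32 genes in the list 2 rose and 11 fell (median -0.36). Acta2, smooth muscle actin, was at 347, 265 and 290.1 CPM in the ambient libraries and at 72.2, 119.8 and 66.9 CPM in the cold ones (log2 fold change -1.80, standard error 0.27, adjusted p = 0.00106), and Cnn1 (calponin) at 46.3, 39.6 and 38.1 and 1.75, 2.12 and 1.17 CPM (log2 fold change -4.62, standard error 0.34, adjusted p = 9.41e-06). Tagln, an actin-binding protein of smooth muscle, fell by 1.40, Myh11, smooth muscle myosin, by 1.16, and Ctgf and Cyr61, matricellular targets of MRTF and YAP, by 1.93 and 1.72. The call of Cyr61 was lost without ambient replicate 2 (-0.94), without cold replicate 1 (-1.62) and without cold replicate 3 (-1.59). The gene that rose most in the list was Des (desmin, 1.67), an intermediate filament of muscle, whose call was lost without ambient replicate 3 (1.37) and without cold replicate 2 (1.20), and muscle markers were higher in the same libraries without passing. The genes of smooth muscle type that fell are also made by the myoepithelial cells of the mammary gland, whose epithelial markers summed to at most 70.3 CPM in the cold libraries, and the part of these cells was not tested. The promoters of Fhl2, an Srf target that fell from 5.54, 4.33 and 4.84 to 1.46, 2.01 and 1.39 CPM (log2 fold change -1.6, standard error 0.22, adjusted p = 0.000547) are shown because they hold a CArG box, the Srf site (in capitals, searched on both strands), at each of 2 annotated start sites, a form found in 1.81% of all promoter windows (1.59% of those of tested genes).
Fhl2, chr1:43196838-43196867, minus strand: catttagagaCCAAAAAAGGcttgcaggag
Fhl2, chr1:43163973-43164002, minus strand: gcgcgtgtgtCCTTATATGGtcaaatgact

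In the Wnt pathway 5 of 37 genes rose and 13 fell (median -0.09; 2 without cold replicate 2 for those that rose). Fzd4, a receptor of fat and endothelium, went from 212, 189.7 and 247 to 360.0, 569 and 488 CPM (log2 fold change 1.13, standard error 0.17, adjusted p = 0.00104), and Wnt4, a ligand of the mammary ducts, from 56.6, 29.1 and 49.2 to 1.23, 2.07 and 0.610 CPM (log2 fold change -5.11, adjusted p = 0.000358), while Ctnnb1 and Axin2, the effector of the pathway and its target, did not pass (-0.04 and 0.25). In TGF-beta, BMP and activin signalling 6 of 36 rose and 4 fell (median 0.08). Gdf10 (BMP3b), a secreted factor of stromal cells, rose from 33.1, 28.4 and 29.4 to 92.4, 77.8 and 84.7 CPM (log2 fold change 1.49, standard error 0.18, adjusted p = 0.000260), Nog (noggin), a BMP antagonist, from 0.610, 0.356 and 0.277 to 1.87, 2.99 and 1.94 CPM (log2 fold change 2.44, standard error 0.38, adjusted p = 0.00145), and Tgfb3 fell from 76.7, 93.3 and 69.1 to 28.5, 38.2 and 31.2 CPM (log2 fold change -1.29, standard error 0.18, adjusted p = 0.000765). Of 19 progenitor markers 1 rose and 2 fell (median -0.18; 5 without ambient replicate 1 and 6 without ambient replicate 3 for those that fell): Ebf2 above rose, Thy1, a stromal surface protein, fell from 151, 372 and 146 to 72.4, 56.2 and 67.0 CPM (log2 fold change -1.77, standard error 0.34, adjusted p = 0.00430), and Pdgfra did not pass (-0.54). Of 29 endothelial genes 3 rose and 1 fell (median 0.32), with Angpt1, which steadies vessels, up by 0.74 and its antagonist Angpt2 down from 17.8, 14.9 and 18.8 to 8.06, 9.88 and 8.49 CPM (log2 fold change -0.96, standard error 0.17, adjusted p = 0.00293). The fold minimum limits this count: 24 of the 29 had a positive value. At an adjusted p under 0.05 in the edgeR test with no fold minimum, 10 were higher and 1 lower, beside 1687 and 1964 of all 14904 autosomal genes. Of 17 nerve genes 2 rose and 3 fell (median 0.04). Sox10, of Schwann cells and mammary epithelium, fell from 48.4, 33.9 and 38.3 to 6.54, 12 and 6.33 CPM (log2 fold change -2.28, standard error 0.35, adjusted p = 0.00130).

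Genes with the smallest p among those that fell included Mlph, Krt7, Cldn7 and Arg2. Mlph (melanophilin), which links granules to myosin, was at 185, 154 and 163 CPM in the ambient libraries and at 3.21, 2.47 and 2.05 CPM in the cold ones (log2 fold change -6.02, standard error 0.20, adjusted p = 1.55e-07). Krt7, a keratin of simple epithelia and one of the mammary markers, was at 123, 156 and 115 and 0.526, 0.976 and 0.388 CPM (log2 fold change -7.69, standard error 0.32, adjusted p = 4.21e-07), and Cldn7, a tight junction protein, at 17.8, 13.3 and 14.1 and 0.0584, 0.115 and 0.0555 CPM (log2 fold change -7.51, standard error 0.40, adjusted p = 2.03e-06). Pkp1, a desmosomal plaque protein, fell by 5.45, Prom1, an apical membrane protein and another of the markers, by 3.84, and Papln (papilin), a matrix protein, by 2.83. Arg2, the mitochondrial arginase, went from 49.3, 44.3 and 53.8 to 0.117, 0.230 and 0.0555 CPM (log2 fold change -8.46, standard error 0.30, adjusted p = 2.14e-07). Sex hormone receptors and their targets had 1 higher and 10 lower of 14 (median -4.23). Pgr, the progesterone receptor, was at 116, 172 and 50.3 and 0.175, 0.287 and 0 CPM (log2 fold change -9.47, standard error 0.87, adjusted p = 4.11e-05), Prlr, the prolactin receptor, at 1041, 771 and 1049 and 29.0, 47.8 and 44.8 CPM (log2 fold change -4.56, standard error 0.32, adjusted p = 7.36e-06), and Esr1, the oestrogen receptor, which fat cells also make, at 152, 128 and 168 and 73.3, 84.8 and 101 CPM (log2 fold change -0.79, standard error 0.22, adjusted p = 0.0257). Greb1, an oestrogen-induced gene, and Foxa1, a partner of the oestrogen receptor, fell by 7.57 and 8.48. In each of these the groups did not overlap, and they fell with the mammary markers and between mice of different sex. For Mlph, Krt7, Cldn7, Pkp1, Prom1, Papln and Arg2, groups without overlap were part of how they were chosen.

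The cold effect in bBMCtr mice, measured in other animals with the same change of sex between the groups, showed 516 autosomal genes (3.46%) higher and 1678 (11.3%) lower, and 806 were higher without ambient bBMCtr replicate 1. Of the genes that rose in bBMKO, 350 also rose in bBMCtr, which is 36.4% of the bBMKO genes and 67.8% of the bBMCtr genes, and of those that fell 1199 also fell in bBMCtr (64.8% and 71.5%). Across the 14904 autosomal genes the log2 fold changes of the genotypes correlated with r = 0.80, a description over genes that share libraries. Ucp1 had a log2 fold change of 7.14 in bBMCtr, from 1.33, 0.0965 and 0.323 to 7.85, 13.7 and 229 CPM, and the test of the difference between genotypes did not pass (-1.51, adjusted p = 0.835). Thermogenic effectors had 8 members higher in bBMCtr with a median of 1.28, fatty acid oxidation 6 with 0.41, and collagens had 14 lower with -0.70. No test of the lists' difference was run.

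The difference between the cold effects passed for 117 autosomal genes (0.785%), with 26 (0.174%) more positive and 91 (0.611%) more negative in bBMKO, and these counts moved widely with single libraries. Without ambient bBMCtr replicate 1, the library with the most lymphocyte marker counts at 1808 CPM, they were 636 and 1076, and without any other library they lay between 5 and 171 and between 35 and 183, the upper ends without ambient bBMKO replicate 2. Cdkn1a, the Cdk inhibitor p21, rose in bBMKO as given above and fell in bBMCtr from 37.0, 23.7 and 27.8 to 17.2, 16.9 and 18.0 CPM (bBMKO log2 fold change 0.70, bBMCtr -0.76, difference 1.47, adjusted p = 0.0567). Dsg2 (desmoglein-2), a desmosomal cadherin, went from 38.7, 32.8 and 46.9 to 0.234, 0.344 and 0.166 CPM in bBMKO and from 41.6, 45.5 and 56.5 to 10.2, 10.7 and 10.6 CPM in bBMCtr (difference -5.10, adjusted p = 8.74e-05). Ly6d, a surface protein of keratinocytes and of lymphoid precursors, went from 108, 84.3 and 113 to 1.58, 0.517 and 0.832 CPM in bBMKO and from 89.0, 62.8 and 63.5 to 31.9, 38.7 and 26.6 CPM in bBMCtr (difference -5.55, adjusted p = 0.000449). In both, the cold bBMCtr libraries held the transcript and the cold bBMKO libraries nearly none, and the ambient libraries of both genotypes held it. Lymphocyte and lymph node markers summed to at least 987 CPM in cold bBMCtr and at most 94.7 CPM in cold bBMKO, while mammary markers were at most 70.3 CPM in either, and the part of lymphocytes was not tested for single genes. Rasef, a Rab-type GTPase, ran the other way, from 38.2, 52.0 and 24.4 to 14.0, 5.28 and 16.8 CPM in bBMKO and from 30.2, 18.7 and 26.9 to 0, 0.0469 and 0.0534 CPM in bBMCtr (difference 7.64, adjusted p = 0.0128). The cold bBMCtr libraries held 2 counts of Rasef in all, so that the size of this difference is uncertain.

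**Figure D5:**
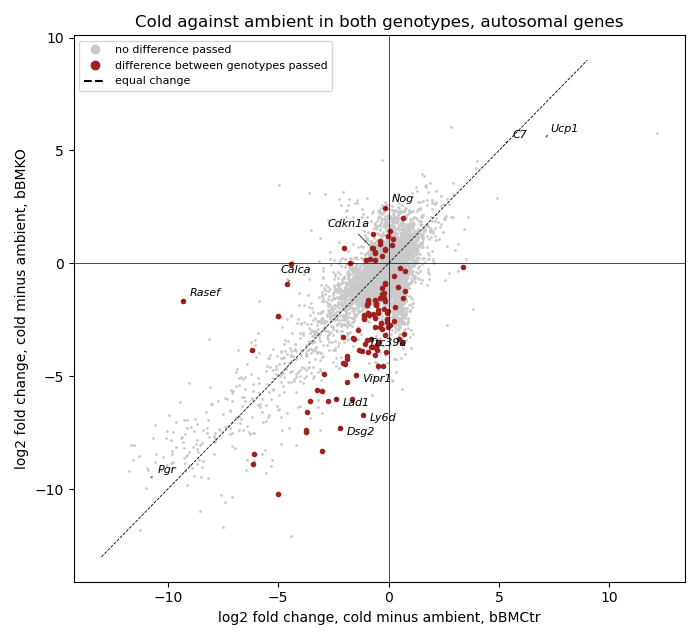
Log2 fold change, cold minus ambient, of each of 14904 autosomal genes in bBMCtr (horizontal) and bBMKO (vertical), with the 117 genes whose difference passed in red and the line of equal change dashed. Dsg2, Ly6d and Lad1 lie below the line, Rasef and Cdkn1a above it, and C7 and Pgr near it. Ucp1 lies below the line as well, but its difference did not pass.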

How the data were processed

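Polyadenylated RNA of inguinal fat was sequenced in 12 libraries (4 groups of 3 mice). The authors mapped reads with STAR (mm10), took unique hits per GENCODE gene with HTSeq, and the deposited table holds raw counts per gene for each library. The tool versions, the GENCODE release and the strand setting were not given in the sources used here, so that reads of overlapping genes (Nnat lies within Blcap) cannot be told apart. The authors' log2(FPKM + 0.1) values, also deposited, served for the filter on low values and for 1 alternative. All 12 columns were used, and each row names a gene.

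Genes that exceeded 0.1 FPKM in 50% or more of the libraries were tested with edgeR 4.0.16 (R 4.3.3) in a quasi-likelihood fit of the counts over all 12 libraries with 4 group terms and TMM factors. CPM are counts scaled by the TMM-adjusted library size of tested genes, and P-values were adjusted (Benjamini-Hochberg) over all 15413 genes. Total counts of 17887795 to 21436282 per library make counting error small for genes above about 1 CPM, and the floor of 3 counts covers counting error only. Standard errors are the absolute log2 fold change over the square root of the F statistic of the fit. They include the spread between mice. Alternatives used limma 3.58.1 and DESeq2 1.42.0, other scalings and filters, covariates for lymphocyte and muscle markers, and each library left out.

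Named genes were the 15 with the smallest p in each direction with non-overlapping groups and a mean over 1 CPM, for each of 49 lists the first 3 tested and up to 5 that passed with the smallest p (2 where none did), the 5 with the smallest p in each direction of the difference between genotypes, and genes that the study names. Slc27a2, Fabp3, Acot11, Ppara, Tbx1, Foxa1, Greb1, Ctgf, Cyr61, Des, Cfi, Acadvl, Hadhb and Idh3a were added after their values were seen. Some genes of these lists are not reported here. The members, lists and rules were chosen with earlier results of these data known. List counts cover autosomal members that passed the filter. Promoter windows came from a RefSeq table (GRCm38.p6), in which 11239 of the 14904 autosomal genes (75.4%) were matched, so that no share of promoters is given for a list.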

Additional observations from a re-analysis of the deposited data

Results flagged for a closer look

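The cold effects in bBMKO and bBMCtr differed in the edgeR test of the difference itself for 22 named genes reported here, and each value here is the bBMKO log2 fold change minus the bBMCtr one. The difference was -5.10 for Dsg2 and -5.55 for Ly6d, which are described above, -3.61 for Lad1 (ladinin, a basement membrane anchor), -3.35 for Ildr1 (a tricellular junction protein), -2.67 for Ttc39a, -2.89 for Dkkl1 and -3.46 for Vipr1, a receptor for vasoactive intestinal peptide. Rab11fip1, a recycling endosome protein, had -1.33, Tes (testin), of focal adhesions, -1.27, Arg2 -2.36 (adjusted p = 0.110), and Lpin2 -0.86 (adjusted p = 0.150). Lymphocyte and lymph node markers differed between the cold groups too, at 47.5 to 94.7 CPM in bBMKO and 987 to 1600 CPM in bBMCtr, and their part was not tested for single genes.

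Positive differences were found for Rasef (7.64), Calca (3.67), which encodes calcitonin and CGRP, Nog (2.59), Cdkn1a (1.47), Hilpda (1.36), Slc6a12 (1.33), Osgin1 (1.22), an oxidative stress gene, and Sesn2 (0.67). In the edgeR test of the difference Rasef had an adjusted p of 0.0128, and those of the other genes ran from 0.0567 to 0.233. Rasef (bBMKO -1.67, bBMCtr -9.31) and Calca (bBMKO -0.92, not passed, bBMCtr -4.60) had negative log2 fold changes in both genotypes. Rpl14-ps1, a pseudogene that may take reads of Rpl14, had 1.23. The differences of the minor collagen chains had opposite signs, with Col7a1 at 2.71 (adjusted p = 0.246) and Col6a4 at -4.29 (adjusted p = 0.122). Both fell in bBMKO (-2.31 and -4.53), and their bBMCtr log2 fold changes were -5.03 and -0.25. In bBMKO, Hilpda and Slc6a12 rose and in bBMCtr their log2 fold changes were -0.38 and 0.67. The samples are few for a difference of differences, and the number of genes that passed changed with single libraries as given above.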

How the results depend on the processing

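Of 405 named genes, 292 passed in bBMKO, and 198 kept their call and direction under every alternative run, with none reversed. The number that rose in bBMKO, 962, was 573 with library size alone, 597 with limma on log2 FPKM and 1687 at an adjusted p under 0.05 with no fold minimum. It lay between 906 and 1076 with DESeq2, RLE factors, no filter, filterByExpr, the compared groups alone, the replicate block and the lymphocyte covariate, was 793 with the muscle covariate, and ran from 819 to 1036 with 1 library left out. The number that fell stayed within 1.5 times under each of these (1586 to 1916 with 1 library left out). In bBMCtr 806 rose without ambient replicate 1, and 402 to 806 with 1 library left out. The difference between genotypes was the least stable: 26 more positive genes became 98 with DESeq2, 17 with no filter, 13 with limma, 12 with the replicate block, 10 with the lymphocyte covariate, 2 at an adjusted p under 0.05 and 5 to 636 with 1 library left out, and 91 more negative genes became 183 with DESeq2, 45 with the replicate block, 22 at the stricter threshold and 35 to 1076 with 1 library left out. The cause was not tested, other than that library size alone sets the cold bBMKO libraries lower by construction. Library size alone also moved lists: 4 lipase genes, 3 of fatty acid uptake, 3 peroxisomal, 1 of branched-chain amino acid breakdown, 4 of glycolysis, 4 of complement and MHC class II and 3 of glucocorticoid response rose, and 33 cytosolic ribosomal proteins, 8 sterol genes, 7 progenitor markers, 6 of collagen processing and 4 of the unfolded protein response fell. Replicate numbers did not pair the mice: same-numbered cold and ambient bBMKO libraries deviated with correlations of -0.085, 0.174 and 0.055, and with the replicate block 906 genes rose and 1775 fell. Replicates differed by more than counting noise (16.6 to 111 chi-square units per gene). Depth limits genes under about 1 CPM. Temperature and sex cannot be told apart under any setting, and whether age differed between the groups is not recorded.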
